A study of Rattus norvegicus with 20 samples.

Results

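CaM kinases and calcineurin are represented here by 10 genes, chosen by symbol from the 31038 genes of the deposited count matrix: *Camk2a*, *Camk2b*, *Camk2d*, *Camk2g*, *Camkk1*, *Camkk2*, *Camk4*, *Ppp3ca*, *Ppp3cb* and *Ppp3r1*. The rule used their symbols and no threshold on a measured value, although earlier results of these data were known when the genes were chosen. All 10 were among the 16605 genes that reached 5 reads in 10 or more libraries and were tested. RNA came from the mPFC (medial prefrontal cortex) of 20 male Sprague-Dawley rats, aged 6 to 8 weeks at the start per the labels, with 1 library per rat. The 10 LSD rats were given 0.16 mg/kg intraperitoneally on alternate days over 90 days, the 10 saline rats received sterile saline on the same schedule, and both groups then went 3 weeks without injections according to the series' design text. The study's methods give a somewhat longer interval and a somewhat older starting age. The comparison of the groups asks which transcripts still differed after the drug had been stopped.

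In neurons, calcium that enters through NMDA receptors and voltage-gated channels binds calmodulin, and calcium-loaded calmodulin switches on both a set of kinases and a phosphatase. CaMKII, a ring of subunits from the *Camk2* genes, is abundant at the postsynaptic side of excitatory synapses and is required for long-term potentiation. CaMKK phosphorylates CaMKI and CaMKIV, and CaMKIV acts in the nucleus on CREB. Calcineurin pairs a catalytic A subunit with the calcium-binding B subunit and removes phosphate from NFAT factors and from synaptic proteins, which favours long-term depression.

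Libraries held between 16346629 and 25552681 reads on genes in LSD rats (median 20271086) and between 11098076 and 24201351 in saline rats (median 16815424), so the LSD libraries tended to be larger. Markers of excitatory cortical neurons were detected in every library, with at least 490 reads for each of the 5 genes listed. Their summed level ranged from 1893 to 2607 RPM (reads per 1000000, TMM-normalised) in LSD rats (median 2163) and from 2016 to 2984 in saline rats (median 2447.5). Markers of the neighbouring striatum were detected too. All 6 of them had a negative log2 fold change, none with an adjusted p under 0.05, and their sum ranged from 200.8 to 435 RPM (median 244) in LSD rats and from 230.4 to 609 RPM (median 299.7) in saline rats. Exceeding 1.5 times the median of all libraries, LSD rat 9 and saline rats 2, 8 and 9 had striatal sums of 435 to 609 RPM, against 200.8 to 324 RPM in the other 16 rats. Saline rats 2, 8 and 9 held 24201351, 18216632 and 19805283 reads on genes and LSD rat 9 held 22770382, each above its group's median. Fits without these 4 libraries therefore also change the balance of library sizes between the groups. The same 4 libraries had the highest sums of 5 oligodendrocyte genes, 5527 to 7209 RPM against 2075 to 5077. All 5 oligodendrocyte genes had a negative log2 fold change (median -0.33), with median sums of 3674 RPM in LSD rats and 4516 RPM in saline rats, and so did 4 of the 5 excitatory genes (median -0.06), none of them called. The part of these shifts in the results below was not tested. In tissue RNA of this kind, fewer cells of a type and less RNA per cell cannot be told apart.

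Most of the 10 genes did not pass the test. *Camk4*, the nuclear kinase, and *Ppp3cb*, a catalytic calcineurin subunit, were higher in LSD rats with an adjusted p under 0.05 (quasi-likelihood test of edgeR, adjusted by Benjamini-Hochberg over all genes), and none of the 10 was called lower. Thus 2 of 10 were called, or 20%, where 15.0% of all tested genes were called in either direction, 6.48% higher and 8.54% lower. A share of this size is near the background, and no enrichment is read from it. Before adjustment, 3 of the 10 had a p under 0.05, against 30.8% of all genes. The 10 log2 fold changes (LSD minus saline) ran from -0.16 to 0.32 with a median of 0.04, beside a median of 0.00 over all genes. Levels are not compared between genes, because transcript lengths were not used here.

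**Figure D1:**
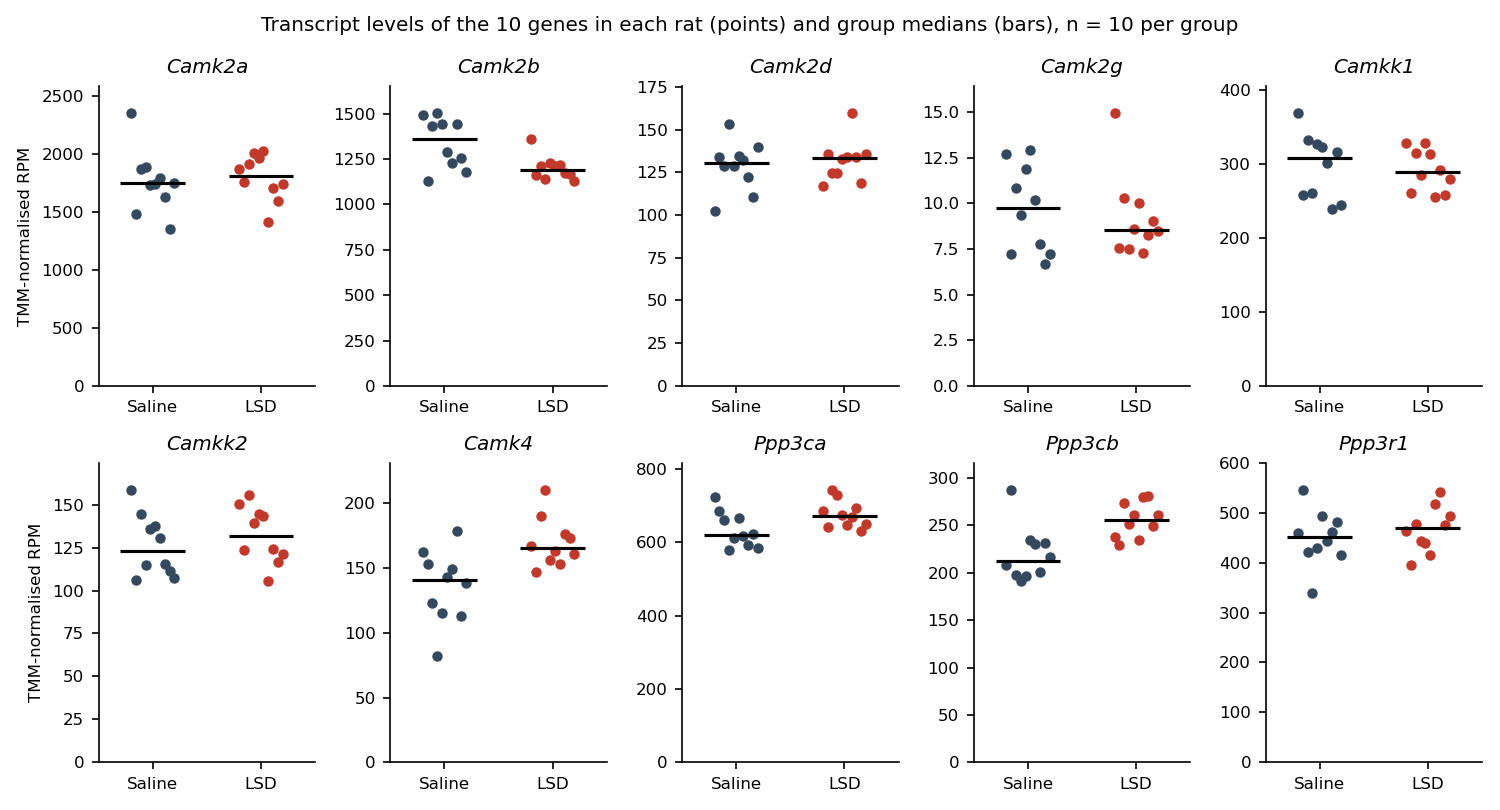
Each panel plots 1 gene, with TMM-normalised RPM on the y axis from 0 and the 2 groups on the x axis; points are single rats (10 per group) and bars are group medians. For Camk4, Ppp3ca and Ppp3cb all 10 LSD points lie above the saline median, for Camk2b all 10 lie below it, and the ranges overlap for every gene.

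None of the 4 CaMKII subunit genes was called. *Camk2a*, which encodes the alpha subunit typical of forebrain excitatory neurons, ranged from 1416 to 2031 RPM (median 1816) in LSD rats and from 1353 to 2355 RPM (median 1751) in saline rats. Every LSD rat fell inside the saline range, and saline rats 9 and 1 marked its lowest and highest ends. Its log2 fold change was 0.03 (standard error, SE, 0.0822, adjusted p = 0.836, edgeR). *Camk2b*, the beta subunit that ties the holoenzyme to actin, ranged from 1126 to 1358 RPM (median 1191) in LSD rats and from 1130 to 1502 RPM (median 1361) in saline rats. None of the 10 LSD rats was above the saline median, although saline rat 2 was as low as the lowest LSD rats. The means were 1199 ± 65.3 RPM in LSD rats and 1339 ± 138 RPM in saline rats (SD, n = 10 each), a log2 fold change of -0.16 (SE 0.0573, adjusted p = 0.0618, edgeR) that missed the threshold.

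*Camk2b* lay close to the threshold, and its call depended on the fit. DESeq2 gave a log2 fold change of -0.16 with an adjusted p of 0.0327, and without the 4 libraries with high striatal markers edgeR gave -0.18 with an adjusted p of 0.0393. Offsets that remove each library's trend with the genomic span of genes gave -0.24 (adjusted p = 0.0191), and leaving out LSD rat 1, saline rat 2 or saline rat 10 also brought the call. With the total reads of each library as a covariate, chosen after seeing the data, the value was -0.06 (adjusted p = 0.529). The genes of the delta and gamma subunits, which are widely expressed outside neurons too, were not called in either direction. *Camk2d* ranged from 117 to 159.5 RPM (median 133) in LSD rats and from 102 to 153 RPM (median 130.3) in saline rats, with a log2 fold change of 0.03 (SE 0.0650, adjusted p = 0.769). *Camk2g* was the gene with the fewest reads, 128 to 236 per rat, and the widest scatter, with coefficients of variation of 24.5% in both groups. Its level was 7.30 to 14.9 RPM in LSD rats (median 8.55) and 6.70 to 12.9 RPM in saline rats (median 9.76), a log2 fold change of -0.07 (SE 0.141, adjusted p = 0.782).

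The kinase cascade held the largest difference among the 10 genes. *Camk4* ranged from 147 to 210.3 RPM (median 165) in LSD rats and from 82.0 to 178 RPM (median 141) in saline rats. All 10 LSD rats were above the saline median, while 8 of them still lay within the saline range, whose low end was set by saline rat 4. The means of 169.6 ± 18.9 RPM (SD, n = 10) in LSD rats and 136 ± 28.0 RPM (SD, n = 10) in saline rats gave a log2 fold change of 0.32 (SE 0.102, adjusted p = 0.0364, edgeR), which is 24.9% higher.

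The call for *Camk4* depended on single rats. It was lost when any one of LSD rats 3, 4, 8 or 9 or saline rats 3, 4, 5 or 9 was left out, with adjusted p-values up to 0.0726, while over all 20 such fits the log2 fold change stayed between 0.26 and 0.37. It was also lost with span offsets (0.21, adjusted p = 0.144) and with the library depth covariate (0.24, adjusted p = 0.179), although the sign held. Without the 4 libraries with high striatal markers it was 0.38 (adjusted p = 0.0230). Saline rat 4, which had the lowest *Camk4*, was not among those 4 libraries.

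Neither gene of the activating kinases upstream was called. *Camkk1*, one of the kinases that phosphorylate CaMKI and CaMKIV, ranged from 256 to 329 RPM (median 289) in LSD rats and from 239 to 369 RPM (median 309) in saline rats, so that all LSD rats lay within the saline range. Its log2 fold change was -0.03 (SE 0.0777, adjusted p = 0.860). *Camkk2*, its paralogue, which also phosphorylates AMP-activated kinase, ranged from 106 to 156 RPM (median 132) in LSD rats and from 106 to 159 RPM (median 123) in saline rats, with a log2 fold change of 0.07 (SE 0.0806, adjusted p = 0.595). *Camkk2* is the only one of the 10 genes that a protein-coding gene, *P2rx4*, overlaps in the GRCr8 annotation, and without a stated strand setting their reads may not be fully separated. Long noncoding RNA genes overlap *Camk2b*, *Camk4*, *Ppp3ca*, *Ppp3cb* and *Ppp3r1*, and those at *Camk2b* and *Ppp3cb* are in the count matrix. The same limit holds for these genes.

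Of the 3 calcineurin genes, *Ppp3cb* was called higher, and *Ppp3ca* and *Ppp3r1* were not called. *Ppp3cb*, the beta isoform of the catalytic A subunit, ranged from 229.6 to 281 RPM (median 256) in LSD rats and from 191 to 287 RPM (median 213) in saline rats. All 10 LSD rats were above the saline median, but saline rat 2 alone, at 287 RPM, was above every LSD rat, while the next highest saline rat had 234 RPM. The means were 256 ± 18.5 RPM and 219 ± 28.6 RPM (SD, n = 10 each), a log2 fold change of 0.22 (SE 0.0650, adjusted p = 0.0269, edgeR), or 16.5% higher. The call held with each of the 20 rats left out in turn, at adjusted p-values from 0.00234 to 0.0490, and without the 4 libraries with high striatal markers the value was 0.28 (adjusted p = 0.00566). It was lost with span offsets (0.17, adjusted p = 0.0769) and with the library depth covariate (0.09, adjusted p = 0.296). The 4 excluded libraries included 3 saline libraries larger than the saline median, and *Ppp3cb* rose with library size, as given below. The part of library size in the value of 0.28 was not tested.

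*Ppp3ca*, the alpha isoform and the more studied catalytic subunit in brain, ranged from 632 to 744 RPM (median 672) in LSD rats and from 578 to 723 RPM (median 621) in saline rats. All 10 LSD rats were again above the saline median, yet the difference was small, with a log2 fold change of 0.09 (SE 0.0486, adjusted p = 0.201). Scaling by total counts brought it to 0.14 (adjusted p = 0.0402), with the median of all genes at 0.05, and span offsets turned it to -0.02 (adjusted p = 0.818). *Ppp3r1*, the calcium-binding B subunit, ranged from 396 to 540.4 RPM (median 469) in LSD rats and from 339 to 546 RPM (median 451) in saline rats. Every LSD rat lay within the saline range, and the log2 fold change was 0.05 (SE 0.0702, adjusted p = 0.649).

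**Figure D2:**
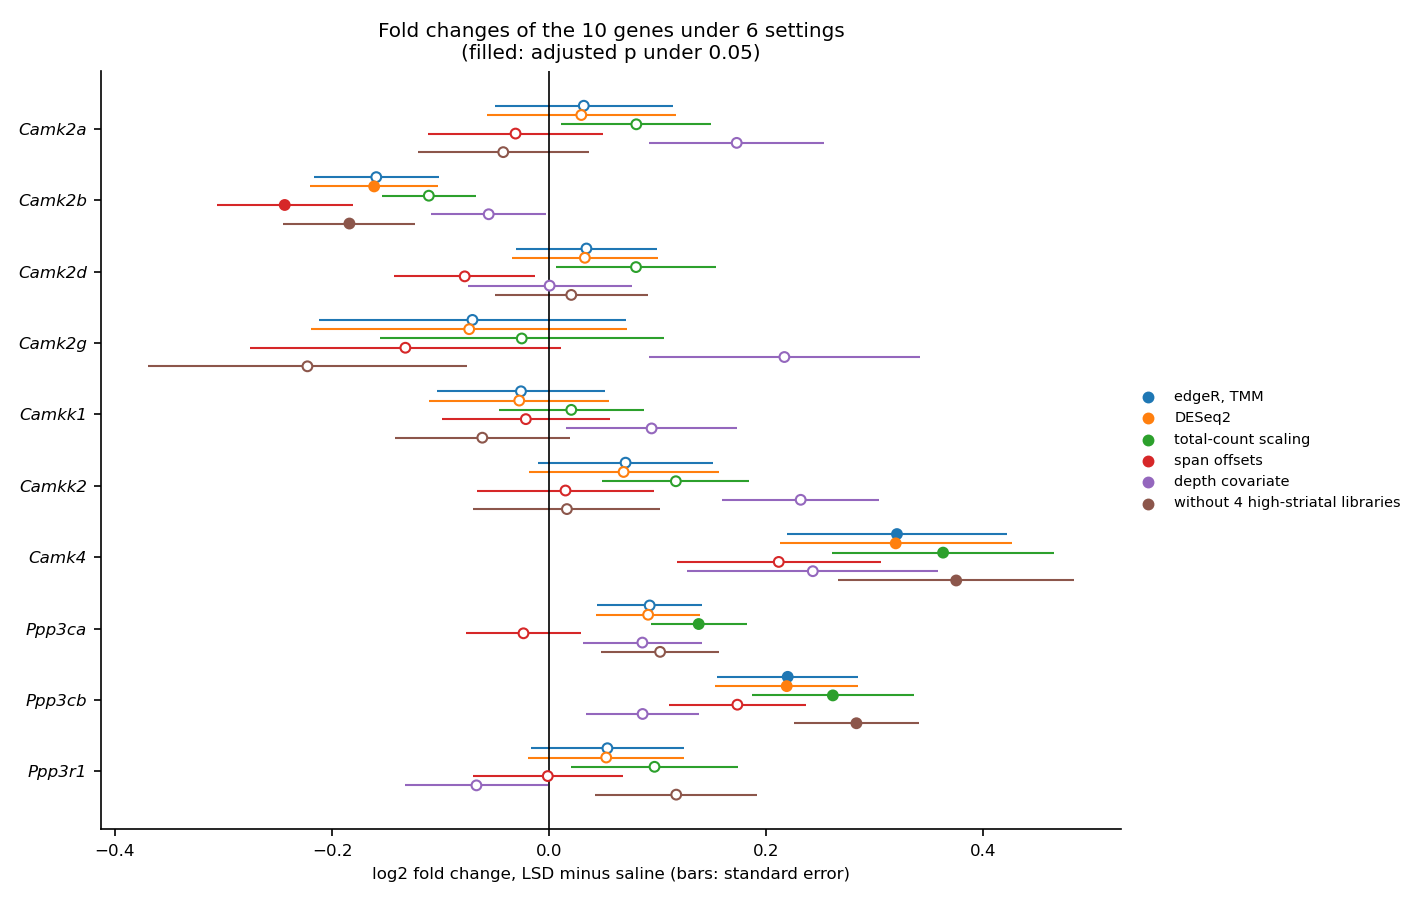
The x axis gives the log2 fold change (LSD minus saline) of each of the 10 genes with its standard error, in 6 settings told apart by colour; filled points have an adjusted p under 0.05. Camk4 and Ppp3cb stay to the right of 0 throughout but are open with span offsets and with the depth covariate, and Camk2b stays to the left of 0 and is filled in 3 of the 6 settings.

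Ratios of genes within a rat do not depend on how its library is scaled. They can still follow library size where their genes relate to it differently, as *Ppp3cb* (Pearson's r = 0.78) and *Ppp3ca* (r = 0.06) did. The relation of the ratios to library size was not tested. Of the 4 ratios computed, none passed after adjustment over the 4. The log2 ratio of *Camk2a* to *Camk2b* reads, which follows the balance of the main CaMKII subunits, ranged from 0.22 to 0.82 (median 0.62) in LSD rats and from 0.10 to 0.66 (median 0.39) in saline rats. It was above the saline median in 9 of 10 LSD rats, and the mean difference was 0.19 (SE 0.0777, adjusted p = 0.0735, two-sided permutation test with 100000 resamples). The log2 ratio of *Ppp3ca* to *Ppp3cb*, the catalytic isoforms, was lower in LSD rats by a mean difference of -0.13 (SE 0.0602, adjusted p = 0.0735, same test), and 1 of 10 LSD rats exceeded the saline median. For *Camkk1* to *Camkk2* the mean difference was -0.09 (SE 0.0453, adjusted p = 0.0735). The ratio of the kinase *Camk2a* to the phosphatase *Ppp3ca* differed by -0.06 (SE 0.0816, adjusted p = 0.498), from means of 1.41 ± 0.152 in LSD rats and 1.46 ± 0.208 in saline rats (SD, n = 10 each).

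Several of the 10 genes followed the size of the library, after the mean of each group had been removed. In this family of 10 relations over 20 rats, *Ppp3cb* rose with log2 total gene reads (Pearson's r = 0.78, adjusted p = 0.0017; Spearman's rho = 0.81, adjusted p = 0.00060; permutation tests within groups), with r = 0.79 among LSD rats and 0.78 among saline rats. *Ppp3r1* rose as well (r = 0.63, adjusted p = 0.0129; rho = 0.71, adjusted p = 0.00295, permutation tests). *Camk2b* fell with library size (r = -0.70, adjusted p = 0.00338; rho = -0.63, adjusted p = 0.00883, permutation tests), and so did *Camk2a* (r = -0.60, rho = -0.71), *Camk2g* (r = -0.69, rho = -0.70), *Camkk1* (r = -0.54, rho = -0.58) and *Camkk2* (r = -0.69, rho = -0.68), with permutation p-values that, once adjusted, lay between 0.00295 and 0.0340. *Camk4* (r = 0.28, adjusted p = 0.366; rho = 0.23, adjusted p = 0.376), *Ppp3ca* (r = 0.06, adjusted p = 0.819; rho = 0.04, adjusted p = 0.862) and *Camk2d* (r = 0.18, adjusted p = 0.537; rho = 0.28, adjusted p = 0.302) did not pass these permutation tests. Without saline rats 2 and 5, which lay farthest from the median size, r was 0.69 for *Ppp3cb*, 0.62 for *Ppp3r1*, -0.59 for *Camk2b*, -0.69 for *Camk2a*, -0.67 for *Camk2g*, -0.47 for *Camkk1* and -0.71 for *Camkk2*. An absolute r over 0.5 was found for 7 of the 10 genes and for 37.8% of all tested genes, so the relation is not particular to these genes. The difference between these shares was not tested. With library size in the fit, the log2 fold changes of *Ppp3cb* and *Camk2b* were the 0.09 and -0.06 given above. The same fit moved other genes away from 0. *Camkk2* went from 0.07 to 0.23 (adjusted p = 0.0522, edgeR) and *Camk2a* from 0.03 to 0.17 (adjusted p = 0.172, edgeR), neither of them called. Reducing all libraries at random to 11098076 reads left *Ppp3cb* at 0.22 (adjusted p = 0.0323) and *Camk4* at 0.31 (adjusted p = 0.0446, edgeR). A random draw keeps each gene's expected share of its library, so it cannot address the relation of levels to library size. What else varied with library size was not tested.

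**Figure D3:**
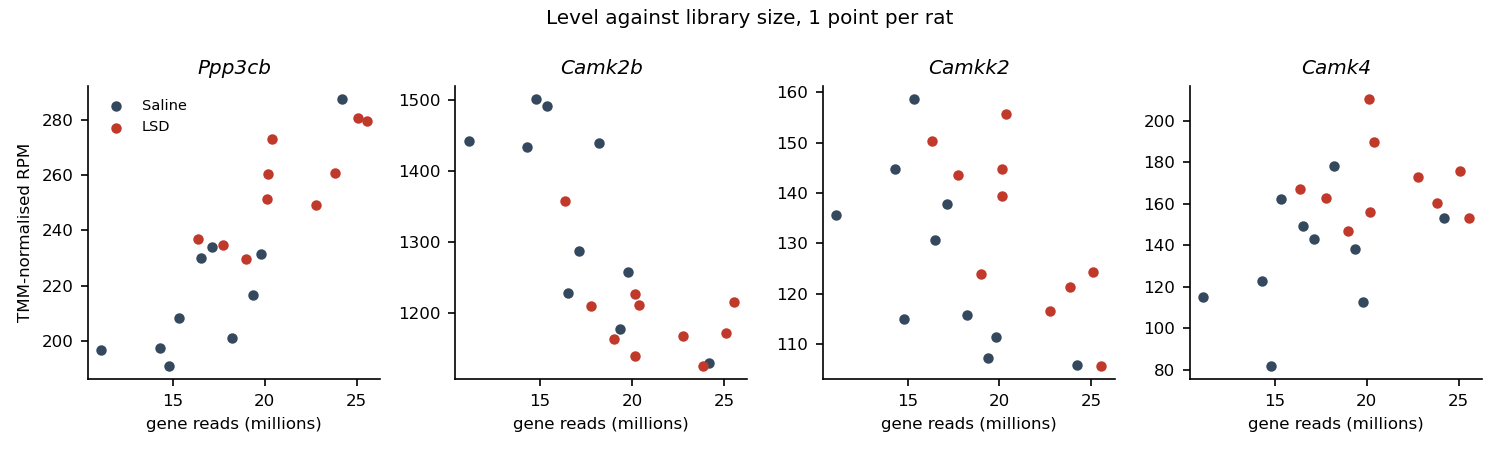
Each point is 1 rat, with the reads on genes on the x axis in units of 1000000 and the TMM-normalised RPM of the gene on the y axis, which does not start at 0. Ppp3cb rises and Camk2b and Camkk2 fall with library size in both groups (r = 0.78, -0.70 and -0.69 after group means were removed), and Camk4 shows no such relation that passed the test (r = 0.28).

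Whether the genes varied together from rat to rat was examined next. Of 6 pairs listed by the roles of the genes, none passed the permutation test after adjustment over the 6. The catalytic and regulatory calcineurin genes *Ppp3ca* and *Ppp3r1* had r = 0.48 (adjusted p = 0.174; rho = 0.47, adjusted p = 0.138, permutation tests), and *Ppp3ca* and *Ppp3cb* had r = 0.43 (adjusted p = 0.174; rho = 0.49, adjusted p = 0.138, permutation tests), which without the 2 rats farthest from the median were 0.54 and 0.55. With scaling by total counts both passed the permutation test, at r = 0.64 and 0.65 (adjusted p = 0.0182 each). The same scaling lowered r to 0.10 for *Camk2a* with *Camk2b* and to 0.01 for *Camk2a* with *Ppp3ca*. *Camk2a* and *Camk2b* had r = 0.45 (adjusted p = 0.174) and rho = 0.38 (adjusted p = 0.221, permutation tests), and without the farthest rats r was 0.30. *Camk2a* with *Ppp3ca* had r = 0.33 and rho = 0.22, *Camkk2* with *Camk4* had r = 0.22 and rho = 0.22, and *Camkk1* with *Camk4* had r = 0.02 and rho = -0.10, with adjusted p-values from 0.282 to 0.949 in the permutation tests.

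Over all 45 pairs, examined after these values were seen, 6 passed by Pearson's r after adjustment over the 45, 5 of them positive. *Camkk1* and *Camkk2* had r = 0.85 (adjusted p = 0.00090; rho = 0.86, adjusted p = 0.00090, permutation tests), with 0.89 among LSD rats and 0.85 among saline rats, and r = 0.85 without saline rats 1 and 8. *Ppp3cb* and *Ppp3r1* had r = 0.80 (adjusted p = 0.00105; rho = 0.80, adjusted p = 0.00165, permutation tests), and r = 0.72 without saline rats 2 and 4. *Camk2a* and *Camkk2* had r = 0.80 (adjusted p = 0.00045; rho = 0.72, adjusted p = 0.00742, permutation tests), and r = 0.76 without saline rats 1 and 9. *Camk2g* followed *Camkk2* (r = 0.78, rho = 0.81) and *Camkk1* (r = 0.70, rho = 0.75), with adjusted p-values from 0.00165 to 0.0116 in permutation tests, and r was 0.80 and 0.69 without LSD rat 1 and saline rat 6. *Camk2b* and *Ppp3cb* ran in opposite directions (r = -0.69, adjusted p = 0.0116; rho = -0.55, adjusted p = 0.0860, permutation tests), with r = -0.85 among saline rats but -0.18 among LSD rats, and r = -0.55 without LSD rat 1 and saline rat 2, so this relation rests on the saline rats. Every gene named in these 6 pairs passed the test against library size above, and the levels of a pair come from the same libraries.

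**Figure D4:**
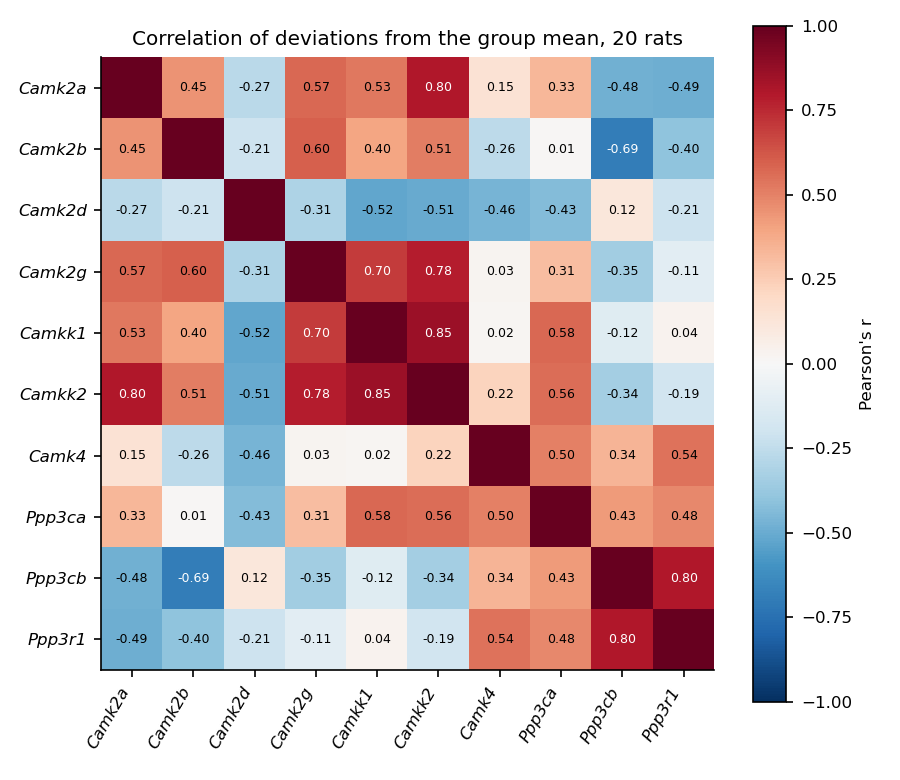
The matrix gives Pearson's r between each pair of the 10 genes over 20 rats, from log2(RPM + 1) after removal of the group mean, with red for positive and blue for negative values. Camk2a, Camk2g, Camkk1 and Camkk2 form a positive block (r from 0.53 to 0.85), and Ppp3cb with Ppp3r1 (0.80) is set apart from it.

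Because *Ppp3cb* and *Ppp3r1* encode the subunits of one enzyme and their levels moved together, their promoters are shown, from 250 bases before to 50 after the annotated start (RefSeq, build GRCr8, plus strand). They lie at chr15:3809012-3809311 for *Ppp3cb* and chr14:95769596-95769895 for *Ppp3r1*, and capitals mark TGACG or its reverse complement CGTCA, the half-site that CREB can bind.
Ppp3cb: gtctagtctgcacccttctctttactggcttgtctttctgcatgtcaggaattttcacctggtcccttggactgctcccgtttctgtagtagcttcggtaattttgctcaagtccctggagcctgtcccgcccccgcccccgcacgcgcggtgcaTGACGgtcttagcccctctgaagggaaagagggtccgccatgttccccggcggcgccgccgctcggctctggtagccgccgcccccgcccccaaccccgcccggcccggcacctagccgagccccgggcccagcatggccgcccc
Ppp3r1: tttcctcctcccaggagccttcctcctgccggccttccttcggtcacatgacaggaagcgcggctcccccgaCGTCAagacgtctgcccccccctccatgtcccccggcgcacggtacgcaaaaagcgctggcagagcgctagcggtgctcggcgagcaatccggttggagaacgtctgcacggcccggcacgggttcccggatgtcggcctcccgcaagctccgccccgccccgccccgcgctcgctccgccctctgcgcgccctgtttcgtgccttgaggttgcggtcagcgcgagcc

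Each of these windows held the half-site 1 time, on either strand, and both were rich in G and C (66.7% and 70.3%). Of the 9 genes with a promoter in the table, 4 held the half-site (*Camk2a*, *Camkk1*, *Ppp3cb* and *Ppp3r1*), against 21.2% of all 33469 promoters of the same length. The full palindrome TGACGTCA was in none of the 9 windows and in 1.83% of all promoters. The GC box GGGCGG or CCGCCC was in 7 of the 9, against 33.1% of all promoters. The set of all promoters was not limited to tested genes or matched for G and C, so no enrichment is read from these shares. These matches are descriptions of letters and say nothing of binding.

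The genes whose rat-to-rat pattern was most like that of *Camk2a*, *Camk4* or *Ppp3ca* were sought outside the gene lists used here. The search used Pearson's r over the 20 rats after removal of group means, with no test. For *Camk2a* they were *Ank1* (r = 0.94), *Rap1gap2* (r = 0.94) and *Dab2ip* (r = 0.92). For *Camk4* they were *Atmin* (r = 0.88), *Strbp* (r = 0.88) and *Kcna2* (r = 0.87), of which *Strbp* (log2 fold change 0.23, adjusted p = 0.0183) and *Kcna2* (0.23, adjusted p = 0.0483) were also called higher in LSD rats by edgeR. For *Ppp3ca* they were *Cbln2* (r = 0.84), *Garnl3* (r = 0.81) and *Plekhs1* (r = 0.81). None of the genes named for *Camk2a* and *Ppp3ca* was called, where 15.0% of all tested genes were called in either direction.

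Around the 10 genes, 42 further genes of calcium-calmodulin signalling were listed by role, and 41 were tested, since *Ppp3r2*, a testis isoform of the B subunit, had too few reads. Of the 41, 4 were called higher and 3 lower in LSD rats, and their median log2 fold change was -0.07, beside 0.00 over all genes. With 15.0% of all tested genes called, 6.48% higher and 8.54% lower, these counts are near the background. The 6 genes listed for calmodulin and proteins that bind it all had negative values, with a median of -0.15, and 1 of them was called. *Gap43*, a growth cone protein that binds calmodulin, ranged from 333 to 399.6 RPM (median 376) in LSD rats and from 359 to 454 RPM (median 409.7) in saline rats, a log2 fold change of -0.15 (SE 0.0483, adjusted p = 0.0438). The call was lost when any of 16 single rats was left out, after scaling libraries to their total counts (-0.10, adjusted p = 0.170), without a filter on low counts (-0.13, adjusted p = 0.149) and without the 4 libraries with high striatal markers (-0.10, adjusted p = 0.172).

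Of the inhibitor proteins of CaMKII, *Camk2n2* was lower. It ranged from 22.1 to 29.0 RPM (median 25.9) in LSD rats and from 24.6 to 44.4 RPM (median 33.5) in saline rats, none of the LSD rats was above the saline median, and the log2 fold change was -0.38 (SE 0.0920, adjusted p = 0.0104). The depth covariate ended this call (-0.20, adjusted p = 0.133). *Rcan1*, a calcineurin regulator that is itself a target of calcineurin and NFAT, was the only one of 8 regulators and anchors called. It ranged from 62.5 to 71.5 RPM (median 67.1) in LSD rats and from 70.2 to 88.7 RPM (median 76.0) in saline rats, so that the groups overlapped only at their edges. Its log2 fold change was -0.18 (SE 0.0456, adjusted p = 0.0119), and the call held with each rat left out but not with scaling by total counts (-0.14, adjusted p = 0.0622).

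The genes called higher were in other roles. *Camk1d*, a CaMKI isoform and substrate of CaMKK, ranged from 77.5 to 97.5 RPM (median 88.6) in LSD rats and from 55.9 to 79.8 RPM (median 72.6) in saline rats, with a log2 fold change of 0.33 (SE 0.0653, adjusted p = 0.00580), while the other 4 kinases of its group were not called. *Grin2a*, an NMDA receptor subunit, ranged from 80.6 to 132 RPM (median 106) in LSD rats and from 35.9 to 91.1 RPM (median 80.6) in saline rats, with a log2 fold change of 0.49 (SE 0.122, adjusted p = 0.0125). *Lrrc7*, the postsynaptic density protein densin that binds CaMKII, ranged from 28.0 to 38.8 RPM (median 32.0) in LSD rats and from 16.5 to 29.6 RPM (median 26.2) in saline rats, with a log2 fold change of 0.38 (SE 0.0804, adjusted p = 0.00697). These 3 genes stayed past the threshold in all 11 other settings and with each of the 20 rats left out. Their lowest log2 fold changes over those settings were 0.22 (*Camk1d*, with span offsets), 0.39 (*Grin2a*) and 0.26 (*Lrrc7*). *Creb1*, the transcription factor that CaMKIV phosphorylates, ranged from 7.02 to 11.5 RPM (median 9.80) in LSD rats and from 5.60 to 9.09 RPM (median 8.19) in saline rats. Its log2 fold change was 0.29 (SE 0.0950, adjusted p = 0.0408), and leaving out any of 12 single rats ended the call. So did span offsets (0.23, adjusted p = 0.0958), the depth covariate (0.26, adjusted p = 0.136) and the absence of a low-count filter (0.31, adjusted p = 0.0530).

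No NFAT factor was called among 5, the smallest p being that of *Nfat5*, with a log2 fold change of 0.22 (SE 0.0812, adjusted p = 0.0728). *Nfat5* passed when libraries were scaled to total counts (0.26, adjusted p = 0.0398) and without LSD rat 10 or saline rat 7, 8 or 10, and span offsets brought it to 0.14 (adjusted p = 0.205). The gamma catalytic subunit *Ppp3cc* had 0.20 (SE 0.0931, adjusted p = 0.140), passed without LSD rat 1 (0.25, adjusted p = 0.0484) or saline rat 2 (0.26, adjusted p = 0.0425), and was 0.0022 with the depth covariate (adjusted p = 0.989). Genes with near-identical copies elsewhere in the genome, such as *Calm2* and *Ppia*, are uncertain because reads shared between copies may have been set aside in counting.

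**Figure D5:**
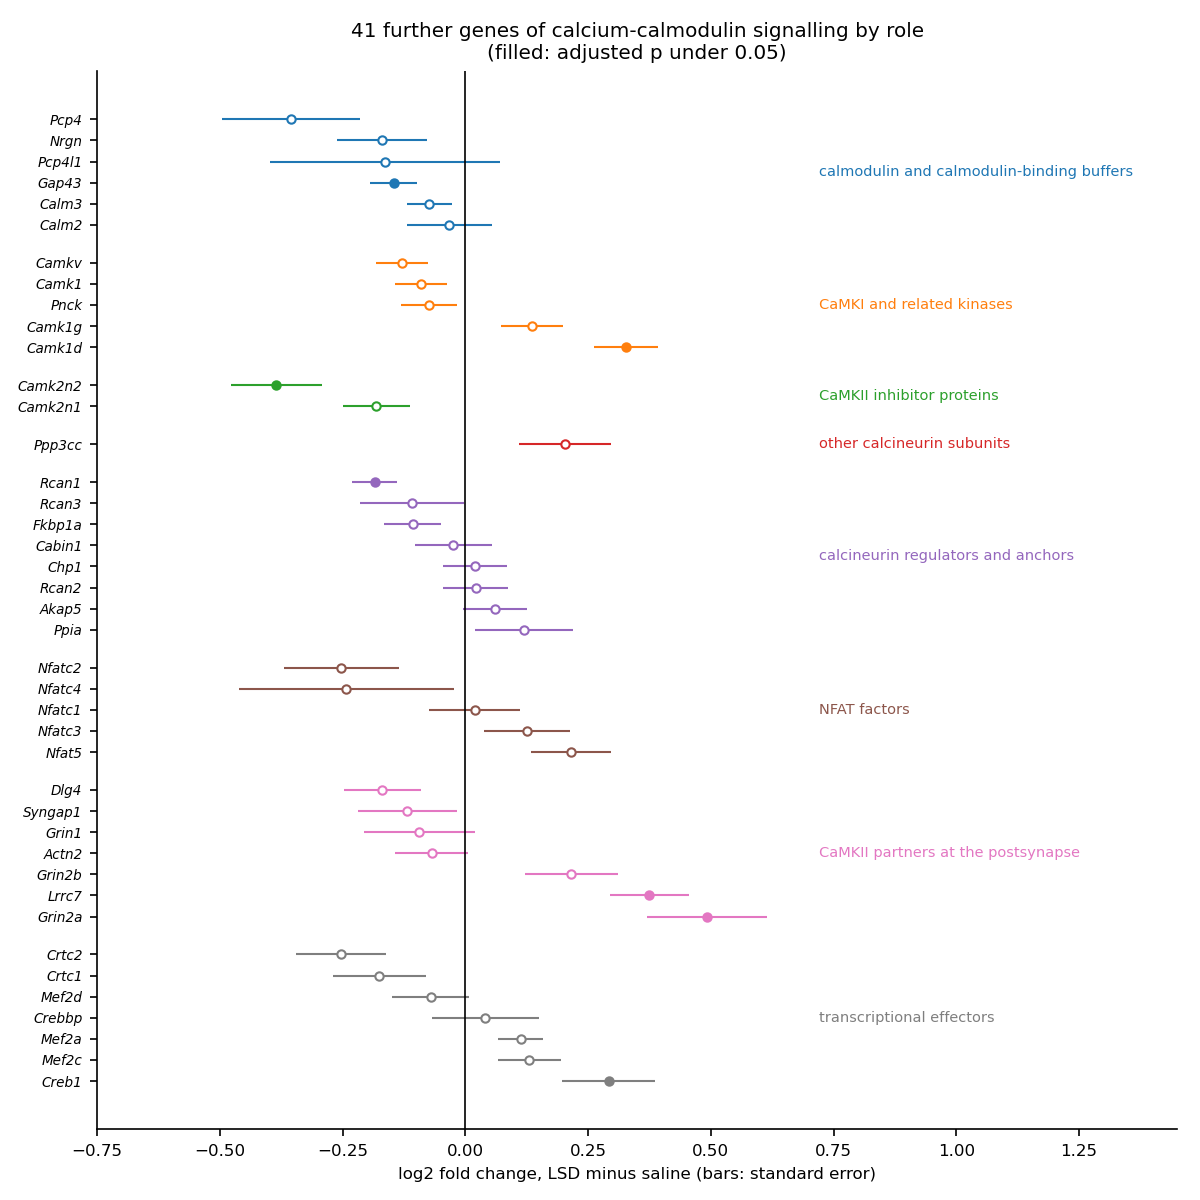
The x axis gives the log2 fold change (LSD minus saline) with its standard error for the 41 tested genes around the CaM kinases and calcineurin, grouped by role and coloured by group; filled points have an adjusted p under 0.05. The 6 calmodulin and buffer genes lie left of 0, and the 7 filled points are 3 lower (Gap43, Camk2n2, Rcan1) and 4 higher (Camk1d, Lrrc7, Grin2a, Creb1).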

How the data were processed

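The authors trimmed reads with TrimGalore, mapped them to rn6 (Rnor_6.0) using HISAT2, and deposited the raw HTSeq-count counts per gene symbol. Versions, gene annotation and strand setting are not given in the sources used here. The 5 entries without a gene name, 25.5% to 29.0% of all reads listed per library, were left out of library sizes and tests. Groups came from the sample titles, and no batch is given.

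A gene was kept when 10 or more libraries had 5 or more reads, and kept genes were tested with edgeR 4.0.16 in R 4.3.3 (TMM, quasi-likelihood F test, Benjamini-Hochberg adjustment over 16605 genes, threshold 0.05). DESeq2 1.42.0 was an alternative. The pipeline was tested on simulated data. Ratios and correlations used TMM-normalised RPM, for correlations as log2(RPM + 1), with 100000 permutations (Python 3.11.15, scipy 1.17.1). Libraries held 11098076 to 25552681 gene reads, and the spread over 10 rats sets the precision. Standard errors of log2 fold changes are the absolute value divided by the square root of F.

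Span offsets remove each rat's trend of log2(RPM + 1) with gene span over 50 bins smoothed over 5, centred on the rat's median. Spans come from GRCr8, with an entry for 89.9% of tested genes, and stand in for rn6. Over the 14929 tested genes with a span, log2 fold changes rose with span in the main fit (Spearman's rho = 0.36). With span offsets rho was 0.06. The cause of this trend was not tested. The depth covariate and the exclusion of 4 libraries by striatal markers, as well as the 45 pairs and the relation to library size, were chosen after seeing the data. The 10 genes and all lists were chosen with earlier results of these data known. Besides the 10, the text names in each role group up to 4 genes past the threshold, smallest p first, or the 1 with the smallest p, and the 3 genes most like *Camk2a*, *Camk4* and *Ppp3ca*. Of the marker lists, those for inhibitory neurons held 2 genes called higher and 2 lower, for astrocytes 1 lower (*Aldoc*), and those for microglia, endothelium, oligodendrocytes, excitatory neurons and striatum none. 1 gene of the surrounding list is not reported here.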

Additional observations from a re-analysis of the deposited data

Results flagged for a closer look

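In groups of 10 rats, 46 sets of values were screened for a lowest or highest rat whose gap to its neighbour exceeded Dixon's critical share of the range, and 5 were found, where chance gives about 1 in 20. LSD rat 1 had 1358 RPM of *Camk2b*, with the next LSD rat at 1227, and 14.9 RPM of *Camk2g*, with the next at 10.3. LSD rat 7 had 159.5 RPM of *Camk2d*, with the next at 136. Saline rat 2 had 287 RPM of *Ppp3cb*, with the next saline rat at 234; without this rat the log2 fold change of *Ppp3cb* was 0.27 (adjusted p = 0.00234, edgeR). Saline rat 9 had a log2 ratio of *Camkk1* to *Camkk2* of 1.504, with the next at 1.28. Saline rats 2 and 9 were also among the 4 libraries with high striatal markers. LSD rat 1 had the smallest LSD library (16346629 gene reads), LSD rat 7 the largest (25552681), and saline rat 2 the largest saline library (24201351). Saline rat 9, with 19805283, was at neither end. Over all rats, *Camk2b* and *Camk2g* fell and *Ppp3cb* rose with library size, while *Camk2d* did not pass that test. Why these rats stood apart was not tested.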

How the results depend on the processing

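The signs of *Camk2b*, *Camkk2*, *Camk4* and *Ppp3cb* held in all 11 alternatives and with each rat left out. Of the 10 genes, 0 were called higher with span offsets, with span offsets and the replicate block, and with the depth covariate, and 1 (*Camk2b*) was called lower with DESeq2, the replicate block, span offsets with and without the block, and without the 4 libraries with high striatal markers. Leaving out single rats gave 1 to 2 higher and 0 to 1 lower. Over all genes, 567 were higher with span offsets, 534 with the depth covariate and 1691 without the 4 libraries; 858 were lower with scaling by total counts (1504 higher), 836 without a filter and 639 with the depth covariate; single rats left out gave 659 to 1681 higher and 907 to 1867 lower. Of the 41 surrounding genes, 8 were higher and 1 lower with total counts, 5 were lower with the replicate block, with or without span offsets, and without the 4 libraries, and single rats left out gave 3 to 6 higher and 2 to 5 lower.

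Signs turned for genes near 0. *Camk2a* was -0.031 with span offsets, -0.025 with the block added, -0.042 without the 4 libraries and -0.0049 to 0.088 with single rats left out (negative without saline rat 9). *Camk2d* was -0.078 and *Ppp3ca* -0.024 with span offsets, and -0.076 and -0.019 with the block added. *Camk2g* was 0.22, *Camkk1* 0.094 and *Ppp3r1* -0.067 with the depth covariate. *Camkk1* was 0.020 with total counts and -0.057 to 0.015 with single rats left out (positive without saline rat 1), and *Ppp3r1* was -0.0012 with span offsets. With single rats left out, log2 ratios ranged from 0.16 to 0.23 (*Camk2a* to *Camk2b*), -0.16 to -0.10 (*Ppp3ca* to *Ppp3cb*), and -0.11 to -0.060 (*Camkk1* to *Camkk2*); these passed without LSD rat 7 or saline rat 1, without saline rat 2, and without LSD rat 7 or saline rat 8. With total counts, r was 0.65 for *Ppp3ca* with *Ppp3cb* and 0.64 with *Ppp3r1*, both past the permutation test, and -0.058 for *Camkk1* with *Camk4*. For *Camk2a*, r with total counts was 0.10 with *Camk2b* and 0.013 with *Ppp3ca*. The cause of these changes was not tested.

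The labels do not say what a replicate number shares, and the numbers were not treated as pairs: deviations of same-numbered rats had a mean correlation of 0.15, against -0.016 for other numbers, and exceeded 0.1 in 6 of 10 pairs, and 1 of 10 LSD rats was most like the saline rat of its number. With the replicate block, 1355 genes were higher and 1606 lower, *Camk4* was 0.34 and *Ppp3cb* 0.23, both called. *Camk2b* was -0.15 (adjusted p = 0.0414, edgeR; -0.24, adjusted p = 0.0138, with span offsets too), *Ppp3cc* 0.20 (adjusted p = 0.0473) and *Gap43* -0.14 (adjusted p = 0.0592). Pearson's r was 0.81 for *Ppp3ca* with *Ppp3cb*, 0.86 with *Ppp3r1*, -0.11 for *Camk2a* with *Camk2b* and -0.011 with *Ppp3ca*.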
